A study of Mus musculus with 8 samples.

Results

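The 7 genes described here encode some chains of the IL-12 family, IL-15, IL-18, the IL-15 receptor chain IL-15Rα and the IL-18 binding protein. They are Il12b, Ebi3, Il27, Il15, Il15ra, Il18 and Il18bp, taken by symbol from a count table of 15917 genes, and all 7 were present and passed the filter on low counts. Their transcripts were measured by mRNA sequencing in mouse eosinophils, granule-bearing leukocytes of type 2 immunity. The cells came from the blood of C57BL/6 mice of the IL-5 transgenic line NJ.1638, which overproduces IL-5, the survival factor of eosinophils, whereas the genotype label reads WT. They were enriched by removal of CD90+ and B220+ cells and kept in culture for 18 h.

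There were 8 libraries in 4 groups of 2, from 2 experiments. In the first, E1 eosinophils received 15 ng/mL IFN-γ and TNF-α, and CN eosinophils received no cytokine. In the second, E2 eosinophils received IL-5, GM-CSF and IL-4 at 10 ng/mL, plus IL-33 at 30 ng/mL, and E0 eosinophils received 10 ng/mL IL-5 alone. IL-5 was therefore present in both arms of the second experiment and was added to neither arm of the first. The labels do not state which animals the duplicates were taken from. In all 4 groups Y-linked transcripts were found in replicate 1 and Xist in replicate 2. Xist is the transcript that silences an X chromosome in female cells. The 2 libraries of a group were therefore not cultures of the same animal, and the spread between them includes a difference of sex. This spread may also be partly technical.

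IL-12 family cytokines are pairs of chains. The p40 chain, product of Il12b, pairs with p35, product of Il12a, to form IL-12, which drives type 1 helper T cells and NK cells to make IFN-γ, and EBI3 pairs with p28, product of Il27, to form IL-27, which both promotes and restrains T cell responses. IL-15 sustains NK cells and memory CD8+ T cells and is handed to them on the surface of cells that make IL-15Rα along with it. IL-18 is stored as a precursor that caspase-1 cleaves, acts with IL-12 to raise IFN-γ, and is neutralised by the secreted IL-18 binding protein.

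Library totals ranged from 60809057 to 95065752 counts, and 3 counts in a library, taken as the detection limit, corresponded to 0.0316 to 0.0493 CPM, the usual scaling of counts to the library total. Replicates ranked genes alike, with Spearman correlations of 0.9921 to 0.9946 across genes. Eosinophil markers summed to 6381 and 5584 CPM in E1, 7397 and 7168 CPM in CN, 4135 and 4176 CPM in E2, and 6643 and 6551 CPM in E0, and none of the 10 was at 0 in any group. Over the 8 libraries neutrophil markers summed to 660.8 to 2270 CPM, those of basophils and mast cells to 80.2 to 134.6 CPM, of NK cells to 11.4 to 50.7 CPM, of B cells to 22.2 to 41.0 CPM and of T cells to 16.2 to 20.2 CPM. Levels below are CPM scaled by TMM, a scaling that offsets differences in library composition, and are given as replicate 1 and replicate 2 of a group. A gene was called at an adjusted p below 0.05 in edgeR's quasi-likelihood test over 15913 genes.

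The genes lie on 6 chromosomes of the mm10 build (GENCODE M21 positions). Il12b (ENSMUSG00000004296) is on chromosome 11 from 44400063 to 44414033, and Ebi3 (ENSMUSG00000003206) is on chromosome 17 from 55952640 to 55957022. Il27 (ENSMUSG00000044701) and Il18bp (ENSMUSG00000070427) are both on chromosome 7, from 126589010 to 126594941 and from 102014885 to 102018690. Il15 (ENSMUSG00000031712) is on chromosome 8 from 82331632 to 82403222. Il15ra (ENSMUSG00000023206) is on chromosome 2 from 11705290 to 11734317, and Il18 (ENSMUSG00000039217) is on chromosome 9 from 50554827 to 50581840. Il27, Il15 and Il18bp are on the minus strand.

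Promoters are shown for the 3 genes that rose under IFN-γ and TNF-α (Il12b, Il15ra and Il18bp) and for Ebi3, which rose 3.79-fold under IL-5, GM-CSF, IL-4 and IL-33. Each is the 250 bases before a RefSeq transcript start (GRCm38.p6), written 5′ to 3′ on the strand of the gene. The windows are chr17:55952373-55952622 for Ebi3, chr11:44399813-44400062 for Il12b, chr2:11705462-11705711 for the second of 2 Il15ra starts, and chr7:102018233-102018482 for Il18bp, on the minus strand. Capitals mark matches to the NF-κB motif, which was read as GGG and CC with any 5 bases between them, on either strand.
Ebi3: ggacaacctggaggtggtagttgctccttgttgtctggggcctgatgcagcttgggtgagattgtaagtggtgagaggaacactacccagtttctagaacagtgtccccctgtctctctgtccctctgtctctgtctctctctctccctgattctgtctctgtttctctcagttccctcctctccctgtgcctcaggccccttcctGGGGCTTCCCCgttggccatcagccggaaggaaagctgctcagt
Il12b: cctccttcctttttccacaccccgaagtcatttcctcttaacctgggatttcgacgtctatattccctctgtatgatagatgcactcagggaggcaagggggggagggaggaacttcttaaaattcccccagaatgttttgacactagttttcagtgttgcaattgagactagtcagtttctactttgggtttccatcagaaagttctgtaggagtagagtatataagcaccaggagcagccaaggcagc
Il15ra, second start: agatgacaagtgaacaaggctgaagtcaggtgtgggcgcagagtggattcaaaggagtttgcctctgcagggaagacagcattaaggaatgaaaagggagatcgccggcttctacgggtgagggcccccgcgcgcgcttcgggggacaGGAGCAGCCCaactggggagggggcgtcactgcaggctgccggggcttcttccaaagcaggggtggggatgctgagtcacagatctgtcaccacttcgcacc
Il18bp: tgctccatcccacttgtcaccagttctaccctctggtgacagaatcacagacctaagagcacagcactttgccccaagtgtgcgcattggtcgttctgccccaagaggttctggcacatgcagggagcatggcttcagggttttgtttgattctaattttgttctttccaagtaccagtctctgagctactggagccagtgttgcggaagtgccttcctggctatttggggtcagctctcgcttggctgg
The Ebi3 window held a run of G and C letters that matched the motif in 2 overlapping places, at -44 to -35 and -43 to -34 from the start, and the second Il15ra window matched it at -102 to -93. The Il12b and Il18bp windows held no match to these letters, nor did the first Il15ra window or that of Il18. Of 32841 mouse promoter windows, 45.8% held this motif. The interferon motifs GAS (TTCNNNGAA) and the ISRE core (GAAA, any 2 bases and GAAA), searched on both strands, were present in 7.02% and 2.98% of all windows and in none of the 6 windows of the 5 members with an entry.

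Under IFN-γ and TNF-α, Il12b, Il15ra and Il18bp rose in E1 relative to CN, none of the 7 fell, and 4 were not called, where 9.19% of all tested genes were called higher and 8.08% lower. In a fit with a block by replicate number within each experiment, Ebi3, Il27 and Il15 were also called higher in E1 versus CN. That made 6 of the 7, where 2786 of 15913 genes were called higher, beside 1463 without the block. Replicate number coincided with the sex of the library, so the block takes up sex and anything else that same-numbered libraries shared. Under IL-5, GM-CSF, IL-4 and IL-33, Ebi3 and Il27 rose in E2 relative to E0, Il12b, Il15, Il18 and Il15ra fell, and Il18bp was not called, where 17.0% of all tested genes were called higher and 18.5% lower. The median log2 fold change of the 7 was 0.71 in E1 versus CN, beside -0.01 over all genes, and -0.62 in E2 versus E0, beside -0.02 over all genes. The difference between the responses, E2 versus E0 minus E1 versus CN, was called lower for Il12b, Il15ra, Il15 and Il18bp and higher for Ebi3, where 14.0% of all genes were called lower and 11.3% higher. It was not called for Il18 or Il27. Because libraries were made from whole cultures, fewer expressing cells and less RNA per cell cannot be told apart.

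**Figure D1:**
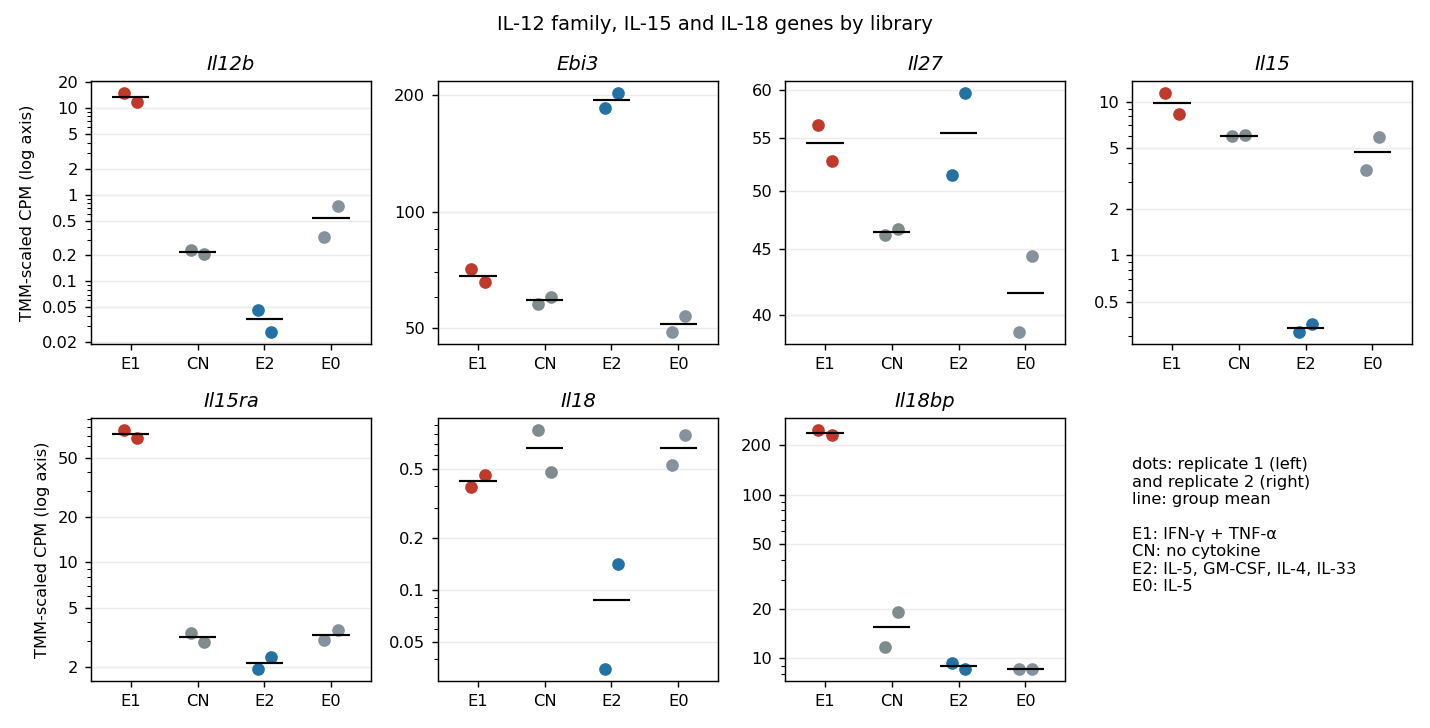
TMM-scaled CPM of the 7 genes in each library on log axes that differ between panels, with replicate 1 left and replicate 2 right in each group and a line at the group mean (E1 beside CN, then E2 beside E0). Il12b, Il15ra and Il18bp stood highest in E1, Ebi3 stood highest in E2, and Il12b, Il15 and Il18 stood lowest in E2.

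**Figure D2:**
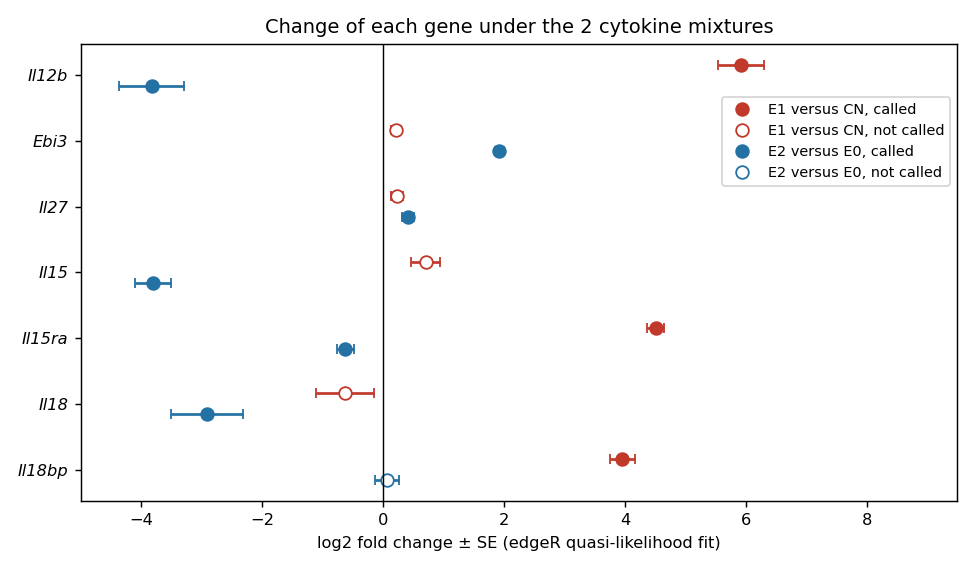
Log2 fold changes with standard errors from the edgeR quasi-likelihood fit, E1 versus CN above E2 versus E0 for each gene, filled where called at an adjusted p below 0.05. Il12b lay at 5.92 in E1 versus CN and at -3.83 in E2 versus E0.

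Il12b, the p40 chain shared by IL-12 and IL-23, had the greatest change of the 7 in E1 versus CN. It was at 14.93 and 11.76 CPM in E1, against 0.232 and 0.204 CPM in CN. The E1 libraries stood far above both CN libraries, a log2 fold change of 5.92 ± 0.38 (SE, adjusted p = 1.96e-05), which was the 61st highest of 15913 genes. In the second experiment Il12b was at 0.0469 and 0.0257 CPM in E2, from 4 and 2 counts, against 0.322 and 0.74 CPM in E0, from 20 and 62 counts. The E2 libraries were at the detection limit and below both E0 libraries, and the log2 fold change was -3.83 ± 0.54 (adjusted p = 0.00113). The ratio of E2 to E0 from summed counts was 0.0647, with a 95% interval of 0.0231 to 0.147 for counting error. Without E0 replicate 2 the log2 fold change was -3.08.

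The direction of the Il12b change thus differed between the mixtures, by -9.75 ± 0.62 on the log2 scale (adjusted p = 2.28e-05). Markers of other cells moved in the same libraries as Il12b. The dendritic cell list summed to 96.9 and 68.4 CPM in E1, against 25.5 and 37.9 CPM in CN, with 4 of 10 genes higher, 1 lower and none at 0. Most of the E1 sum came from Ccr7 and Fscn1. Ccr7 was at 51.3 and 32.9 CPM in E1, against 2.76 and 1.30 CPM in CN. Fscn1 was at 22.6 and 10.1 CPM in E1, against 0.928 and 0.361 CPM in CN. The 4 higher genes were Fscn1, which bundles actin in mature dendritic cells, Ccr7, their lymph node homing receptor, Zbtb46 and Flt3. They rose by 4.65, 4.37, 1.34 and 0.80 on the log2 scale. Xcr1 and Clec9a, which mark cross-presenting dendritic cells, were not called at 0.59 and 0.53. Cd209a went the other way, at 0.299 and 0.368 CPM in E1, against 1.01 and 0.721 CPM in CN. So did Kit, at 8.84 and 11.15 CPM in E1, against 12.52 and 26.03 CPM in CN. Siglech was also lower, at 0.609 and 0.464 CPM in E1, against 0.885 and 0.769 CPM in CN. The monocyte and macrophage list summed to 5540 and 5218 CPM in E1, against 1053 and 936.1 CPM in CN, with 4 of 11 genes higher, 2 lower and none at 0. Most of the E1 sum came from Ly6c2, an interferon-responsive surface protein of monocytes, at 4214 and 3784 CPM in E1, against 92.9 and 105.2 CPM in CN. Their part in the rise of Il12b was not tested.

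Il12a, the p35 partner chain, rose under both mixtures, though from very low counts. It had 83 and 68 counts in E1, against 6 and 2 in CN, and 39 and 48 counts in E2, against 2 and 3 in E0. The log2 fold changes were 4.38 ± 0.47 (adjusted p = 0.000331) in E1 versus CN and 3.91 ± 0.52 (adjusted p = 0.000866) in E2 versus E0, and the difference of responses was not called (-0.47 ± 0.85, adjusted p = 0.743). From summed counts, the ratio of E1 to CN was 20.1 (95% counting interval 9.93 to 47.3) and that of E2 to E0 was 15.4 (6.35 to 48.6).

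Scaled by exon length, the ratio of Il12b to Il12a was 13.02 and 10.97 in E1, against 3.17 and 7.35 in CN. It was 0.0887 and 0.0360 in E2, against 8.65 and 17.9 in E0. The p40 transcript was therefore the more abundant of the pair in E1, CN and E0 and the less abundant in both E2 libraries. The partner chain of IL-23, Il23a, was not analysed here.

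**Figure D3:**
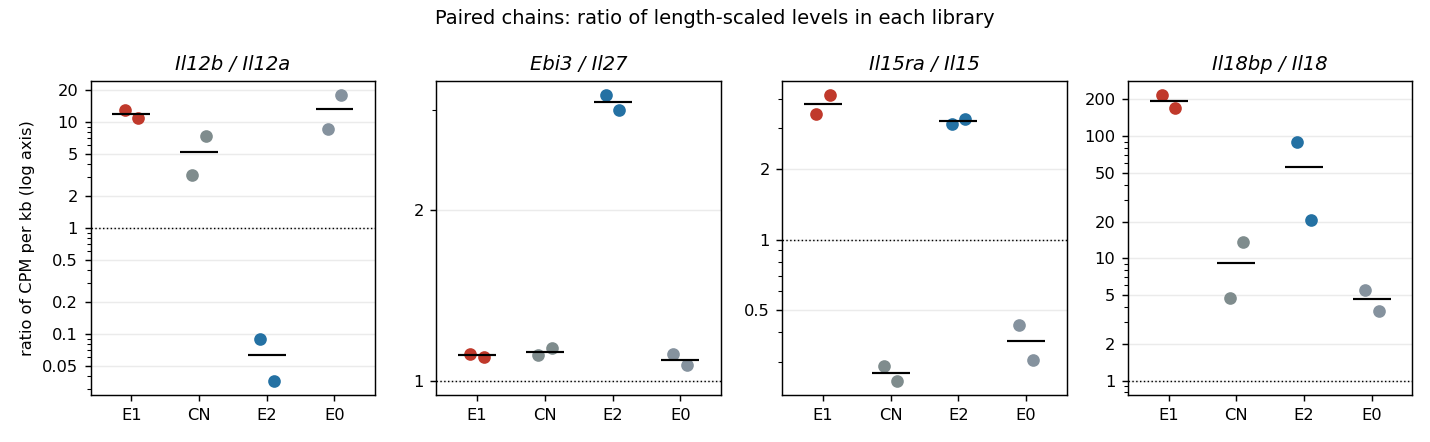
Ratios of length-scaled levels (CPM per kb of exon) for 4 pairs, by library, on log axes that differ between panels, with the dotted line at a ratio of 1. The ratio of Ebi3 to Il27 lay between 1.07 and 1.14 in E1, CN and E0, and at 3.19 and 3.01 in E2.

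Ebi3, the second chain of IL-27, was the member that rose most in E2. It was at 185.4 and 202.7 CPM in E2, against 48.8 and 53.6 CPM in E0. Both E2 libraries were well above both E0 libraries, with a log2 fold change of 1.92 ± 0.08 (adjusted p = 2.45e-06). In the first experiment it was at 70.9 and 65.8 CPM in E1, against 57.9 and 60.2 CPM in CN. This small difference was not called (0.21 ± 0.08, adjusted p = 0.102) without the replicate block and was called with it (adjusted p = 0.0128). The responses differed by 1.71 ± 0.11 (adjusted p = 2.17e-05).

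Il27, the p28 chain, moved less. It was at 51.5 and 59.6 CPM in E2, against 38.8 and 44.5 CPM in E0, with no overlap of the libraries and a log2 fold change of 0.42 ± 0.10 (adjusted p = 0.0144). That call was lost without E0 replicate 1 (adjusted p = 0.0995) or without E2 replicate 2 (adjusted p = 0.104). In E1 it was at 56.3 and 52.8 CPM, against 46.2 and 46.7 CPM in CN. This difference was not called (0.23 ± 0.10, adjusted p = 0.174) without the replicate block and was called with it (adjusted p = 0.00752).

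Per length of exon the 2 chains of IL-27 stood close to each other in the other 3 groups, and Ebi3 exceeded Il27 in E2. Ebi3 averaged 168.1 CPM per kb in E2 and 44.4 CPM per kb in E0, and Il27 averaged 54.4 CPM per kb in E2 and 40.8 CPM per kb in E0. On that scale 98.5% of genes with a known length lay below Ebi3 in E2, and 94.4% lay below Il27. Ebi3 can also pair with p35, whose transcript was far lower, and the length-scaled ratio of Ebi3 to Il12a was 597.3 and 484.1 in E2, against 2234 and 2207 in E0.

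Both IL-27 chains share exon sequence with genes on the other strand, and the strand setting of the counting is not given in the sources used here, so reads in the shared stretches cannot be assigned. Ebi3 shares 270 bases, 23.4% of its exon length, with the antisense gene Gm16712, which also rose in E2 versus E0, by 1.84 ± 0.12 on the log2 scale (adjusted p = 2.2e-05), and the ratio of Ebi3 to Gm16712 counts stayed between 1.61 and 1.88 in all 8 libraries. Il27 shares 103 bases, 10.1% of its exon length, with Apobr, a lipoprotein receptor gene at 1347 to 1703 CPM that was not called in either experiment. Il27 counts were 2.69% to 4.43% of Apobr counts, so that a small share of Apobr reads would be a large share of Il27 counts.

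Il15ra, the chain that presents IL-15, rose 22.7-fold in E1. It was at 76.7 and 67.3 CPM in E1, against 3.38 and 2.94 CPM in CN, with a log2 fold change of 4.51 ± 0.14 (adjusted p = 3.27e-07). In the second experiment it was at 1.95 and 2.33 CPM in E2, against 3.04 and 3.52 CPM in E0, and fell by 0.62 ± 0.14 (adjusted p = 0.00984). The fall did not pass the test without E0 replicate 2 (adjusted p = 0.064), without E2 replicate 1 (adjusted p = 0.0788) or with limma-voom (adjusted p = 0.0518). The responses differed by -5.13 ± 0.19 (adjusted p = 1.66e-06).

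Il15 itself followed another course. It was at 0.317 and 0.36 CPM in E2, against 3.59 and 5.85 CPM in E0. The E2 libraries held 27 and 28 counts and lay below both E0 libraries, with a log2 fold change of -3.80 ± 0.30 (adjusted p = 6.25e-05), the 38th lowest of 15913 genes. In the first experiment it was at 11.4 and 8.25 CPM in E1, against 6.01 and 6.02 CPM in CN. Both E1 libraries were above both CN libraries, but the change was not called (0.71 ± 0.24, adjusted p = 0.0889). It was called with DESeq2 (adjusted p = 0.0309) and with the replicate block (adjusted p = 0.0052). The responses differed by -4.51 ± 0.39 (adjusted p = 0.000111).

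The length-scaled ratio of Il15ra to Il15 was higher under both mixtures, by way of different genes. It was 3.43 and 4.15 in E1, against 0.286 and 0.249 in CN, where Il15ra rose. It was 3.13 and 3.29 in E2, against 0.431 and 0.306 in E0, where Il15 fell by more than Il15ra. Il15 was thus the more abundant transcript of the pair in CN and E0 and Il15ra in E1 and E2.

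Il18bp, the soluble inhibitor of IL-18, was the most abundant of the 7 in E1 per kb of exon, at 79.1 CPM per kb. It was at 249.2 and 229.8 CPM in E1, against 11.7 and 19.2 CPM in CN, with a log2 fold change of 3.96 ± 0.21 (adjusted p = 5.51e-06). Per kb of exon, 95.5% of genes with a known length lay below it in E1 and 55.8% in CN. In the second experiment it was at 9.31 and 8.63 CPM in E2, against 8.63 and 8.61 CPM in E0, which was not called (0.06 ± 0.20, adjusted p = 0.84). The responses differed by -3.90 ± 0.28 (adjusted p = 4.05e-05).

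Il18 was low in all libraries. It was at 0.394 and 0.464 CPM in E1, against 0.843 and 0.481 CPM in CN, which was not called (-0.63 ± 0.49, adjusted p = 0.442). In the second experiment it was at 0.0352 and 0.141 CPM in E2, from 3 and 11 counts, against 0.531 and 0.788 CPM in E0, from 33 and 66 counts. The E2 libraries rested on few counts and lay below both E0 libraries, and the gene fell by 2.92 ± 0.59 (adjusted p = 0.00629). From summed counts the ratio of E2 to E0 was 0.125, with a 95% counting interval of 0.0660 to 0.220. The log2 fold change was -4.18 without E2 replicate 2 and -2.22 without E2 replicate 1.

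The length-scaled ratio of the inhibitor to its ligand, Il18bp to Il18, was 215.4 and 168.9 in E1, against 4.73 and 13.6 in CN. It was 90.2 and 20.8 in E2, against 5.53 and 3.72 in E0. Il18bp was the more abundant transcript in all 8 libraries. Il18bp shares 80 exon bases, 2.64% of its exon length, with Numa1, a spindle gene on the other strand. Numa1 was not called in E1 versus CN (0.22 ± 0.12, adjusted p = 0.276) and fell in E2 versus E0 by 0.72 ± 0.12 (adjusted p = 0.00275). Il18bp counts were 2.2% to 3.9% of Numa1 counts in CN, E2 and E0, and 49.2% and 39.3% in E1. In CN, E2 and E0 a small share of Numa1 reads would therefore be a large share of Il18bp counts, and of its ratio to Il18.

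Most partner and related cytokines in the table rose under both mixtures. Over all tested genes, 9.19% were called higher and 8.08% lower in E1 versus CN, and 17.0% and 18.5% in E2 versus E0. These shares also stand beside the lists that follow for those comparisons. Of 6 cytokines, 4 rose and none fell in each experiment, with a median log2 fold change of 1.26 in E1 versus CN and 3.10 in E2 versus E0. Besides Il12a these were Il6, which signals through the gp130 chain that IL-27 also uses, and Il1a and Il1b, IL-1 cytokines of the same family as IL-18. Il6 was at 18.9 and 24.4 CPM in E1, against 1.25 and 2.26 CPM in CN, and at 98.0 and 97.0 CPM in E2, against 2.01 and 1.95 CPM in E0. Its log2 fold changes were 3.63 ± 0.25 and 5.62 ± 0.27 (adjusted p = 2.75e-05 and 5.43e-06), and the second exceeded the first by 1.99 ± 0.33 (adjusted p = 0.00341). Il1a rose by 1.46 in E1 versus CN and by 4.86 in E2 versus E0, and Il1b by 1.06 and 2.29. Clcf1, a gp130 cytokine, was not called in either (-0.26 ± 0.18 and 0.23 ± 0.18). Nor was Il2, whose receptor shares chains with that of IL-15, with 0 and 0 counts in E1, against 8 and 0 in CN, and 66 and 53 counts in E2, against 49 and 61 in E0. With the replicate block Il2 was called lower in E1 versus CN on these few counts.

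**Figure D4:**
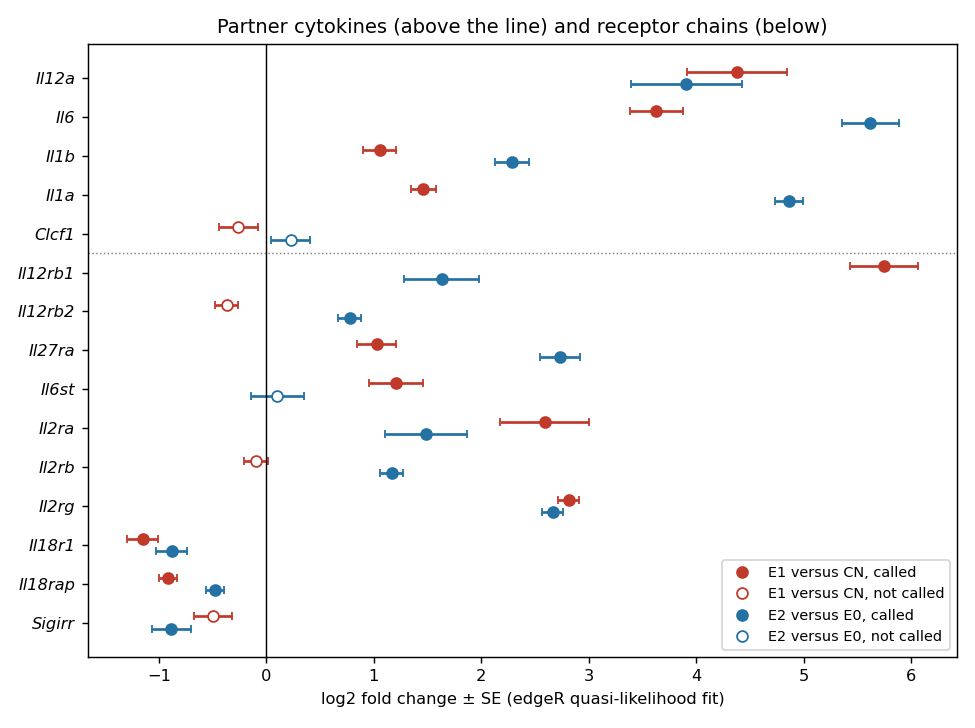
Log2 fold changes with standard errors from the edgeR quasi-likelihood fit for 5 partner or related cytokines and 10 receptor chains, filled where called at an adjusted p below 0.05, with E1 versus CN above E2 versus E0. Il2 is left out because both E1 libraries held 0 counts. Il12rb1 lay at 5.75 and 1.63, and both IL-18 receptor chains lay below 0.

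Among 10 receptor chains, 5 rose and 2 fell in E1 versus CN, and 6 rose and 3 fell in E2 versus E0. Medians were 0.46 and 0.97 on the log2 scale. With library totals alone as the scaling, or with the replicate block, which added Il12rb2 and Sigirr, 4 rather than 2 fell in E1 versus CN. Il12rb1, the receptor chain for p40, was at 25.6 and 22.2 CPM in E1, against 0.443 and 0.445 CPM in CN, and rose by 5.75 ± 0.32 (adjusted p = 7.41e-06). It was at 0.973 and 0.63 CPM in E2, against 0.37 and 0.167 CPM in E0, and rose by 1.63 ± 0.35 (adjusted p = 0.00804), less than in E1 (difference -4.12 ± 0.48, adjusted p = 0.000573). Il12rb2, the second IL-12 receptor chain, was at 38.4 and 35.5 CPM in E2, against 23.4 and 19.8 CPM in E0, and rose by 0.78 ± 0.11 (adjusted p = 0.00103), whereas in E1 it was at 16.2 and 18.1 CPM, against 21.9 and 22.4 CPM in CN, and was not called (-0.37 ± 0.11, adjusted p = 0.0502).

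The IL-27 receptor chain Il27ra rose in both experiments, by 1.03 ± 0.18 (adjusted p = 0.00523) in E1 versus CN and by 2.73 ± 0.19 (adjusted p = 3.07e-05) in E2 versus E0. It was at 9.63 and 8.26 CPM in E2, against 1.35 and 1.34 CPM in E0. Il6st, which encodes gp130, rose by 1.21 ± 0.25 (adjusted p = 0.0121) in E1 versus CN and was not called in E2 versus E0 (0.10 ± 0.24, adjusted p = 0.775).

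The common γ chain Il2rg, which IL-15 and IL-2 receptors share, rose in both experiments. It was at 259.5 and 233.5 CPM in E1, against 38.2 and 31.8 CPM in CN, and at 191.6 and 185.9 CPM in E2, against 28.9 and 30.6 CPM in E0. The log2 fold changes were 2.81 ± 0.10 and 2.66 ± 0.10 (adjusted p = 6.52e-07 and 1.65e-06), and their difference was not called (-0.15 ± 0.13, adjusted p = 0.464). Il2rb, the signalling β chain for IL-15 and IL-2, rose by 1.17 ± 0.11 (adjusted p = 0.00015) in E2 versus E0 and was not called in E1 versus CN (-0.10 ± 0.11, adjusted p = 0.622). Il2ra, the high-affinity IL-2 chain, rose by 2.59 and 1.49.

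The IL-18 receptor chains fell in both experiments. Il18r1, which binds IL-18, was at 7.46 and 8.37 CPM in E1, against 15.2 and 20.0 CPM in CN, and at 7.52 and 7.87 CPM in E2, against 14.3 and 14.0 CPM in E0. It fell by 1.15 ± 0.14 (adjusted p = 0.000803) in E1 versus CN and by 0.88 ± 0.14 (adjusted p = 0.00217) in E2 versus E0. Il18rap, its signalling partner, fell by 0.92 ± 0.09 (adjusted p = 0.000156) and by 0.48 ± 0.08 (adjusted p = 0.00338). Sigirr, an inhibitory receptor of the IL-1 family, fell by 0.89 ± 0.18 (adjusted p = 0.00673) in E2 versus E0 and was not called in E1 versus CN (-0.50 ± 0.18, adjusted p = 0.105).

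Genes that cleave or release IL-18 rose in part. Of 10, 4 rose and none fell in E1 versus CN, and 4 rose and 1 fell in E2 versus E0, or 2 with the replicate block. Casp1, the protease that cleaves pro-IL-18, rose by 2.95 ± 0.18 (adjusted p = 1.6e-05) in E1 and by 0.61 ± 0.17 (adjusted p = 0.0262) in E2. Casp4, the caspase for cytosolic lipopolysaccharide, rose by 2.87 and 1.94, and Nlrc4, an inflammasome sensor, by 2.99 and 2.63. Gsdmd, the pore protein of pyroptosis, rose by 0.74 in E1, and Pycard, the inflammasome adaptor, rose by 0.78 in E2. P2rx7, the ATP-gated channel that triggers release, fell by 3.22 ± 0.31 (adjusted p = 0.000182) in E2 versus E0.

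Of 14 signal transducers, 7 rose and none fell in E1 versus CN. In E2 versus E0, 6 rose and 3 fell, where 17.0% of all genes rose and 18.5% fell. Jak3, the kinase of the γ chain, rose by 2.25 and 0.59, and Stat4, which carries the IL-12 signal, by 0.56 and 0.29. Stat5b, downstream of IL-15, fell by 0.60 ± 0.07 (adjusted p = 0.000534) in E2 and was not called in E1.

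Transcription factors known to act on promoters of these genes rose in most cases. Of 16, 13 rose and none fell in E1 versus CN, and 12 rose and 2 fell in E2 versus E0, with medians of 1.01 and 0.79 on the log2 scale. With a library left out, the number called higher and the number called lower in E2 versus E0 both changed in some fits. Irf1, Irf8 and Irf9, interferon-regulated factors, rose by 4.23, 2.45 and 2.06 in E1, and by 0.41, 0.74 and 0.53 in E2. The NF-κB subunits Relb and Nfkb2 rose by 2.00 and 1.46 in E1 and by 2.23 and 2.23 in E2, and Nfkbiz, a nuclear regulator of NF-κB, rose by 1.03 and 3.28. Irf2 and Rela fell by 0.41 and 0.22 in E2.

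Markers of monocytes and macrophages moved both ways in E2 versus E0, where Il12b, Il15 and Il18 fell. Of 11, 3 rose and 8 fell. Cx3cr1, the fractalkine receptor, was at 0.352 and 0.771 CPM in E2, against 10.8 and 16.1 CPM in E0, and fell by 4.59 ± 0.42 (adjusted p = 0.000136). C1qc, a complement chain, and Mertk, a receptor for dying cells, fell by 3.04 and 2.93. Csf1r and Adgre4 rose by 0.93 and 0.75, Fcgr1 rose by 1.46, and the summed list was at 1733 and 1658 CPM in E2, against 1036 and 1079 CPM in E0, with none at 0. Most of that sum in both groups came from Csf1r and Adgre4. Csf1r was at 816.6 and 772.3 CPM in E2, against 400.4 and 434.3 CPM in E0. Adgre4 was at 846.5 and 819.3 CPM in E2, against 505.3 and 487.1 CPM in E0. Of 10 eosinophil markers, 1 rose and 8 fell in E2 versus E0, with log2 fold changes of 0.28 for Siglecf, a surface lectin, and of -1.73 and -2.68 for Epx and Ear1, granule protein genes. The part of macrophages in the falls of Il12b, Il15 and Il18 was not tested.

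**Figure D5:**
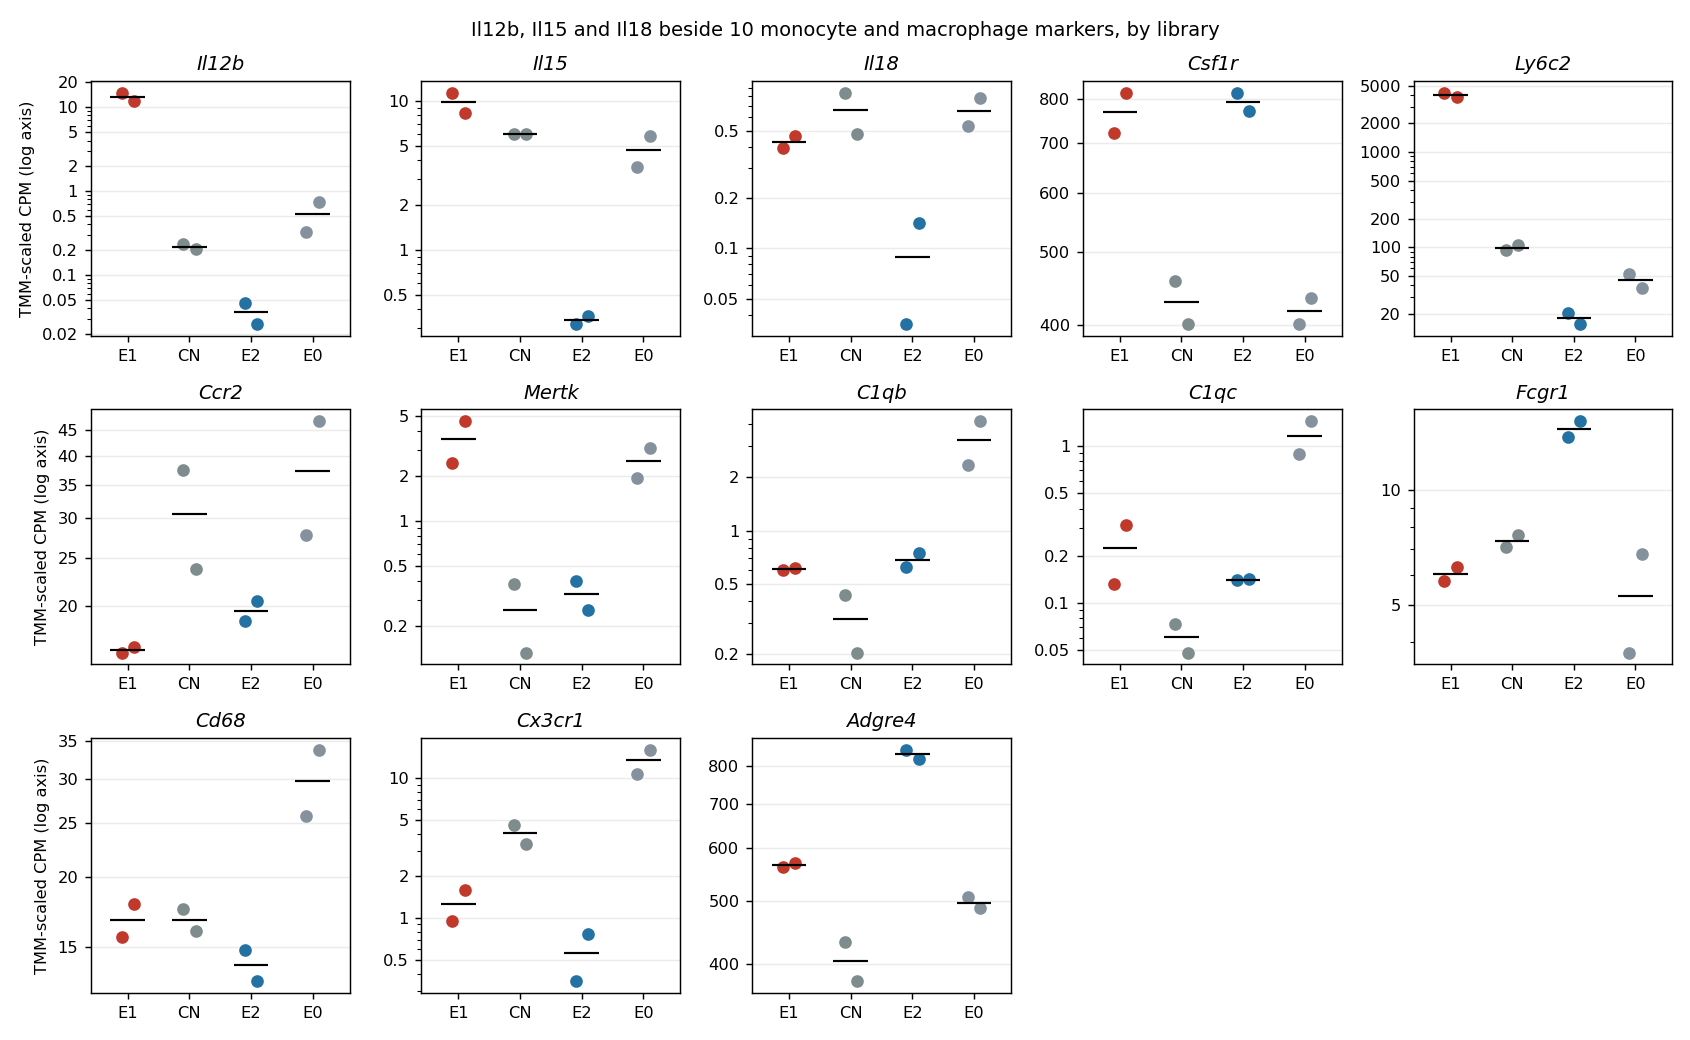
TMM-scaled CPM of Il12b, Il15 and Il18 and of 10 monocyte and macrophage markers by library, on log axes that differ between panels, with a line at the group mean (E1 beside CN, then E2 beside E0). Of the 10 markers, 7 were lower and 3, Csf1r, Fcgr1 and Adgre4, were higher in both E2 libraries than in both E0 libraries. In E1 versus CN, Il12b and the markers Ly6c2, Mertk, Csf1r and Adgre4 were called higher, and Cx3cr1 was called lower.

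Between the treated groups of the 2 experiments, Ebi3 was higher in E2 than in E1 and 5 members were lower, where 27.3% of all genes were called higher and 26.6% lower. The log2 fold change was 1.504 ± 0.08 for Ebi3, -8.45 ± 0.47 for Il12b, -5.08 ± 0.15 for Il15ra, -4.85 ± 0.31 for Il15, -4.74 ± 0.22 for Il18bp and -2.28 ± 0.60 for Il18, and Il27 was not called (0.03 ± 0.10). The call for Il18 was lost without E2 replicate 1 (adjusted p = 0.0751). Between the baselines, Il12b was higher and Il18bp lower in E0 than in CN and the other 5 were not called, where 13.5% of all genes were called higher and 11.9% lower. Il12b differed by 1.31 ± 0.39 (adjusted p = 0.0433), a call lost in 8 of 14 alternatives, and by 0.55 without E0 replicate 2. Il18bp differed by -0.84 ± 0.19 (adjusted p = 0.0163), which missed the threshold without E0 replicate 1 (adjusted p = 0.0682) or E0 replicate 2 (adjusted p = 0.0746). Group and experiment cannot be told apart in either comparison. Of the macrophage markers 7 of 11 were higher and 1 lower in E0 than in CN.

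Ordered by level over the 4 groups, Il12b ran from E1 through E0 and CN to E2, with each neighbour called apart from the next. Its call between E0 and CN was lost in 8 of 14 alternatives. Where neighbours came from different experiments, as in every pair for Il12b, group and experiment cannot be told apart. Il15ra had the same order, but E0 and CN were not called apart. Il18bp ran from E1 through CN to E2 and E0, the last pair not called apart. For Ebi3 only E2 differed from its neighbour, E1, and for Il15 and Il18 only E2, the lowest, differed from its neighbour, which was E0 for Il15 and E1 for Il18. No neighbouring groups were called apart for Il27.

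Over the 8 libraries, Il12b, Il15ra and Il18bp varied together, with Pearson correlations of 0.993 (Il12b with Il15ra), 0.981 (Il15ra with Il18bp) and 0.962 (Il12b with Il18bp) on the log2 scale. Ebi3 ran opposite to Il15 and Il18, at -0.877 and -0.906. These are descriptions over 8 libraries in 4 groups. Among 2714 varying genes, those most like Il15ra were Plac8, Tapbp, which loads peptide onto MHC class I, and Ddx58, the RNA sensor RIG-I (0.998 each), and those most like Il18bp were H2-T22, Parp10 and Stat3 (0.995 to 0.998). The closest to Il12b were Scpep1os, Lgals3bp and Trim30a (0.996 to 0.997), and the closest to Ebi3 were Zdhhc6, Tnfrsf9, the costimulatory receptor 4-1BB, and Ier3 (0.995 to 0.996). For Il27 they were Znf41-ps, Bst1 and Irf5 (0.954 to 0.984), for Il15 they included Scnn1a and Rabac1 (0.991 and 0.990), and for Il18 they were Sh2b2, Xdh and Arhgef37 (0.961 to 0.986). With a pseudocount of 1 in place of 0.5, Scpep1os and Lgals3bp were no longer among the 3 closest to Il12b, nor Znf41-ps among those closest to Il27.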

How the data were processed

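The values deposited by the authors were whole-number read counts for each Ensembl gene, not normalized. STAR, featureCounts and mm10 are named in the submitters' processing notes, and TruSeq Stranded mRNA in the labels' protocols. The sources used here give no tool versions, annotation or strand setting. One unnamed row equalled the column totals (100% of the named counts) and was left out. Of 15917 genes, 15730 had a symbol in the name table.

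The test was that of edgeR 4.0.16 in R 4.3.3 (filterByExpr, TMM, 1 mean per group over all 8 libraries, quasi-likelihood F test, two-sided), with Benjamini-Hochberg adjustment over 15913 genes and a threshold of 0.05. SE is the fold change divided by the root of F. The fit was tested on simulated counts. Counting intervals are exact at 95%, and these and the limit of 3 counts cover counting error only, since PCR reads without molecular identifiers are not independent molecules. Length-scaled levels used merged exons of GENCODE M21, which may differ from the authors' annotation. Similar genes were ranked by correlation of log2(CPM + 0.5) among genes whose group means spanned at least 1 on that scale. Promoters are from RefSeq.

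The members and gene lists were chosen with earlier results of these data known. All members were named; from each other list, up to 4 called genes each way with the greatest change at 1 CPM or more, or 2 where none was called, and any partner or receptor chain. A gene named for one contrast was also given in the other. Xcr1, Clec9a, Cd209a, Kit and Siglech were named after their values were seen. A few genes that these rules name are not reported here. Alternatives were DESeq2 1.42.0 (test or size factors), library totals, no filter, limma-voom (limma 3.58.1), the contrast's 4 libraries alone, a block by replicate number, set separately for the 2 experiments, and each library left out. Replicate 1 held Y-linked transcripts and replicate 2 Xist in each group, so the block also takes up sex.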

Additional observations from a re-analysis of the deposited data

Results flagged for a closer look

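For 5 of the 7 genes the change under IL-5, GM-CSF, IL-4 and IL-33 (E2 versus E0) differed from the change under IFN-γ and TNF-α (E1 versus CN), by edgeR's quasi-likelihood test of the difference itself. Over all tested genes, 14.0% were called lower and 11.3% higher in this difference. The difference was -9.75 for Il12b (adjusted p = 2.28e-05), which fell in E2 and rose in E1. It was -5.13 for Il15ra (adjusted p = 1.66e-06), which fell in E2 and rose in E1, and -4.51 for Il15 (adjusted p = 0.000111), which fell in E2 and was not called in E1. It was -3.90 for Il18bp (adjusted p = 4.05e-05), which was not called in E2 and rose in E1, and 1.71 for Ebi3 (adjusted p = 2.17e-05), which rose in E2 and was not called in E1. The direction and the call of these 5 differences were kept in all 14 alternatives. The experiments also differed in IL-5, present in E2 and E0 and not added to E1 or CN, and how far that difference bears on these values cannot be told apart from the mixtures.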

How the results depend on the processing

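Of 504 recomputed values of the 7 genes, 467 kept their direction and side of the threshold, 16 lost a call, 11 gained one and 10 changed sign, all 10 in values that were not called. In E1 versus CN, the rises of Il12b, Il15ra and Il18bp were kept in all 15 alternatives, and in E2 versus E0 so were the rise of Ebi3 and the falls of Il12b, Il15 and Il18. Il15 in E1 versus CN was called with DESeq2 (0.71, adjusted p = 0.0309), and the fall of Il15ra in E2 versus E0 was lost with limma-voom (-0.64, adjusted p = 0.0518). With library totals alone, Il18 in E0 versus CN was 0.0675, and with limma-voom it was 0.0365. Members higher in E0 versus CN were 0 with limma-voom and 0 with the replicate block, beside 1 (Il12b). The 4 libraries of the contrast alone gave 775 genes lower in E1 versus CN, where the fit over all libraries gave 1286.

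With the replicate number as a replicate block, 2786 genes were higher and 2734 lower in E1 versus CN, beside 1463 and 1286 without it, 4145 were higher in E2 versus E0, beside 2711, and in the difference of responses 3212 were higher and 3609 lower, beside 1798 and 2220. With the block, 6 members rather than 3 were higher in E1 versus CN, Ebi3 (0.21), Il27 (0.23) and Il15 (0.69) being added, members lower in E0 versus CN were 4 rather than 1, with 3085 genes lower beside 1897, and signs turned for Il27 in E2 versus E1 (-0.10) and Il15ra in E0 versus CN (-0.16). Same-numbered libraries deviated together within an experiment (correlations 0.63 for CN and E1 and 0.608 for E0 and E2) and not across experiments (-0.0528 to 0.161). Their sex was the same within and across experiments. The block takes up sex together with anything else that same-numbered libraries of an experiment shared. The labels do not pair these libraries, and each experiment has 2 numbers.

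Leaving out 1 library at a time gave 743 to 1124 genes lower in E1 versus CN, 1569 to 2858 higher and 1765 to 3079 lower in E2 versus E0, and 1177 to 1753 higher in the difference of responses. In E0 versus CN it gave 1282 to 2269 genes higher and 896 to 2005 lower, with 0 to 1 members higher and 0 to 1 lower. Members higher in E2 versus E0 were 1 to 2. Log2 fold changes ran from 0.46 to 0.92 for Il15 in E1 versus CN, from 0.31 to 0.52 for Il27 and -0.76 to -0.50 for Il15ra in E2 versus E0, from -0.0839 to 0.13 for Il27 in E2 versus E1, and in E0 versus CN from -0.34 to 0.46 for Il18 and -0.0582 to 0.16 for Il15ra. With a library left out, the lone sample of its group is assumed to vary like the others.

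With library totals alone, the share of higher among called genes was 38.6% in E1 versus CN, beside 53.2% with TMM, 63.6% in E2 versus E1, beside 50.6%, and 66.9% in E0 versus CN, beside 53.0%, and the median of all genes in E2 versus E1 moved by 0.143. Depth limits Il12b and Il18 in E2 and Il12a in CN and E0, which rest on 14 counts or fewer a group. The causes of these changes were not tested.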

Other observations

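Markers of NK cells, which depend on IL-15, summed to 46.1 and 50.7 CPM in E2 and 39.1 and 42.5 CPM in E0, beside 16.2 and 11.4 CPM in E1 and 18.6 and 14.3 CPM in CN. Most of the E2 sum came from Gzma, at 27.6 and 31.5 CPM in E2, against 11.3 and 12.8 CPM in E0. In E2 versus E0, 1 of 8 NK cell markers (Gzma) was called higher and 2 lower, where 17.0% of all genes were called higher and 18.5% lower. The lower ones were Klra8 and Klrd1, with log2 fold changes of -1.80 and -1.47. In E0 versus CN, 7 of 8 NK cell markers were called higher and none lower, where 13.5% of all genes were called higher and 11.9% lower. So were 4 of 6 B cell markers (0 lower), 7 of 11 of monocytes and macrophages (1 lower) and 4 of 10 of dendritic cells (1 lower). Of 5 T cell markers 0 were called, and of 9 neutrophil markers 1 was higher and 1 lower. Il15 was not called there (-0.35 ± 0.24), and a link to the NK cell markers was not tested. Group and experiment cannot be told apart in E0 versus CN.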
